A study of Homo sapiens with 6 samples.

Results

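The genes described here control the entry of a cell into the division cycle during G1. They are the D cyclins CCND1, CCND2 and CCND3, the kinases CDK4 and CDK6, the kinase inhibitors CDKN1B (p27) and CDKN2C (p18), the pocket protein RB1 and the growth regulator MYC. They were chosen by symbol as genes of G1 entry, by a rule that did not use their measured values. Earlier results of these data were known when the choice was made. All 9 were among the 19846 genes of the deposited table. Messenger RNA was measured in HepG2, a human liver tumour cell line at passage 7 to 9, grown in a hollow fiber bioreactor (3D, 3 samples) or in 6-well plates (2D, 3 samples). The bioreactor held EMEM and DMEM in equal parts with 10% serum, recirculated at 23.5 mL/min and fed at 2 mL/hour. For 2D culture 200000 cells were seeded on each square centimetre in EMEM, and the medium was changed every 2 days. Both were kept at 37 °C in 5% CO2. The serum content of the plate medium is not given in the sources used here. Culture form, medium and feeding differed together and cannot be told apart. Whether replicate samples were separate cultures is not stated in the labels. The p-values therefore reflect spread among the sequenced samples, and that spread may be technical.

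D cyclins are made in response to growth factors and activate CDK4 and CDK6. The active kinases phosphorylate the RB1 protein, which then releases E2F transcription factors that switch on the genes of S phase. CDKN2C blocks CDK4 and CDK6 directly, whereas CDKN1B binds cyclin-kinase complexes and restrains CDK2. MYC, bound to DNA with its partner MAX, drives cell growth and can raise CDK4 and lower inhibitor genes. Most cells of the adult liver rest outside the cycle, while HepG2 cells divide continuously in culture.

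All 3 D cyclins carry near their start the short stretch with which they dock onto RB1, known as the LxCxE motif. The opening 48 bases of their coding sequences (GENCODE release 29 transcripts, sense strand) are shown because they mark what these cyclins share while their messenger RNA levels behaved differently. Capitals mark the 5 codons of the motif, found by translating each sequence.
CCND1: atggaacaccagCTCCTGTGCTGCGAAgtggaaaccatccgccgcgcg
CCND2: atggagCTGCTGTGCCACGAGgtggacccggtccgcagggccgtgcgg
CCND3: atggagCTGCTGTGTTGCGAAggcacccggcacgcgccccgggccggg
The motif took codons 5 to 9 in CCND1 and codons 3 to 7 in CCND2 and in CCND3. Over the whole translated length CCND1 shared 63.5% of aligned residues with CCND2 and 53.6% with CCND3. CDK4 and CDK6 were 70.7% identical.

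Upstream of the kinases, the promoter windows in RefSeq (GRCh38.p14, 250 bases before to 50 after a start site) were searched for the E-box CACGTG, the sequence that MYC and MAX bind, which reads the same on both strands. The CDK4 window, chr12:57752261-57752560 on the minus strand, held 3 E-boxes, starting 216, 196 and 101 bases before the start site. Of 35116 windows of this length, 7.26% held an E-box and 0.094% held 3 or more. The CDK6 window at chr7:92836524-92836823, also on the minus strand, held 1 E-box after the start site, and a second CDK6 window held 0. Both are shown because these kinases went in opposite directions in the main comparison, though neither passed the test with length and GC content corrected. The E-boxes are in capitals.
CDK4: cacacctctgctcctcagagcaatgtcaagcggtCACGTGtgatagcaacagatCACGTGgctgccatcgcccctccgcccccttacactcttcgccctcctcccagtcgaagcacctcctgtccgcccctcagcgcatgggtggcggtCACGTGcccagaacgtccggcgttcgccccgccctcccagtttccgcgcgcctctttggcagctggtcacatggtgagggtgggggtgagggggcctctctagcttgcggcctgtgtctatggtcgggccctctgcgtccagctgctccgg
CDK6: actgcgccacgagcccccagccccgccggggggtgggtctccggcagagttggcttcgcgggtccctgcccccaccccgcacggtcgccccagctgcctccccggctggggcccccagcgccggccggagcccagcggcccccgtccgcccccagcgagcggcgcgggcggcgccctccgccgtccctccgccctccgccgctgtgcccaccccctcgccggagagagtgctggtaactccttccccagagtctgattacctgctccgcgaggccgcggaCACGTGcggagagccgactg
The table held windows for 6 of the 9 genes, without CCND1, CCND2 and MYC. Of 3 windows of CDKN2C, 2 held 1 E-box each, and those of CCND3, CDKN1B and RB1 (the last inside the gene) held 0. The E2F sequences TTTCGCGC, TTTGGCGC and TTTCCCGC, searched on both strands and present in 2.74% of windows, were found in 0 windows of these genes. Such a match is a description of the letters and not a measured binding site.

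Total counts were between 9530795 and 15897621 in the 3D libraries and between 16270361 and 17943513 in the 2D libraries. Levels are given as CPM, the count of a gene relative to the TMM-scaled total of its library. A count of 3 corresponded to 0.194 to 0.298 CPM in 3D and to 0.167 to 0.188 CPM in 2D. The 5 liver markers ALB, AFP, APOA1, TTR and HNF4A averaged 102.6 CPM or more in both cultures. The blood and endothelial markers analysed, CD14, PECAM1, VWF and CDH5, averaged at most 2.15 CPM in 3D and 2.17 CPM in 2D. PDGFRB, a fibroblast and stellate cell gene, averaged 3.21 CPM in 3D, against 10.6 CPM in 2D. The other fibroblast and stellate markers chosen, COL1A2, DCN and LUM, were not among the deposited genes. The same held for the blood markers PTPRC and HBB. The part of other cell types in the results below was not tested. On the first principal component, with 65.3% of the variance, the cultures separated. On the second, with 14.1%, the 3D libraries lay on both sides of the plates. There 3D replicate 1, the library with the fewest counts, was at 37.9, and 3D replicates 2 and 3 were at −17.2 and −27.5. The plates were between 0.29 and 4.77.

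In 3D culture CCND2, CCND3, CDK4 and CDKN2C were higher and CDK6, CDKN1B, RB1 and MYC were lower, while CCND1 did not pass the test. CDKN2C averaged 21.7 ± 5.37 CPM in 3D, against 6.44 ± 2.37 CPM in 2D (SD, n = 3 each). MYC averaged 178 ± 44.6 CPM in 3D, against 297 ± 2.72 CPM in 2D. Each gene was tested with edgeR's quasi-likelihood test, with Benjamini-Hochberg adjustment over 15314 genes and a threshold of 0.05 on the adjusted p. All 9 genes passed the filter on low counts, 4 were called higher and 4 lower. Over all genes tested the test called 36.6%, with 19.0% higher and 17.6% lower. The 3D and 2D libraries did not overlap for 8 of the 9 genes, against 50.5% of all genes tested (25.6% with 3D above and 24.9% with 3D below). With both 2D replicate 2 and 3D replicate 1 left out, again 4 genes were higher and 4 lower. In bulk RNA, a change in the share of cells that are in a given phase and a change in the RNA of each cell cannot be told apart.

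**Figure D1:**
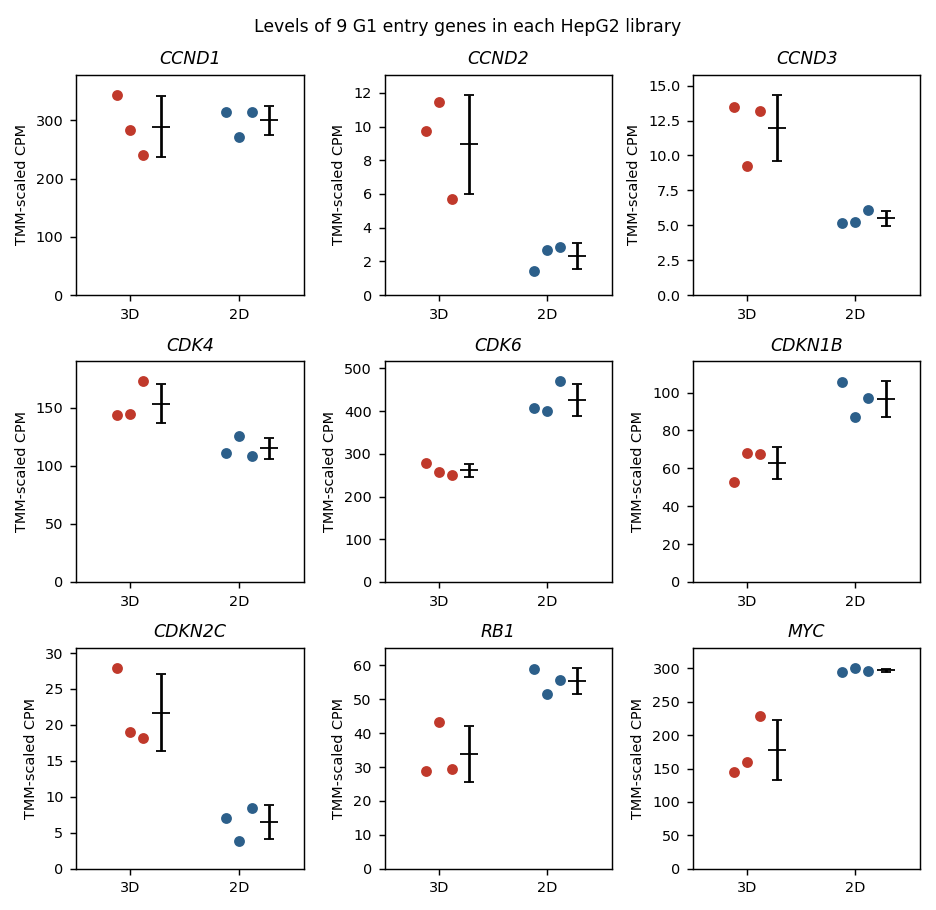
TMM-scaled CPM (vertical axes, from 0) of each of the 9 genes in the 3 libraries of 3D culture (red) and of 2D culture (blue), with the mean and SD beside them. The groups overlap for CCND1 and stand apart for the other 8 genes.

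Among the D cyclins the changes were confined to the less abundant members. CCND1 (chromosome 11, 69641087 to 69654474, hg38), the D cyclin with the highest level here, had 344, 283 and 239.7 CPM in 3D replicates 1 to 3, against 314, 272 and 314 CPM in 2D. The groups overlapped, and the 3D libraries held both the highest and the lowest value. Its log2 fold change was −0.05 (95% interval −0.37 to 0.27, edgeR adjusted p = 0.803). The fold changes of the other members in this comparison lie outside that interval. With length and GC content corrected, those of CDK4 (0.19) and CDK6 (−0.19) lie inside it. It was called under 0 of 16 alternative settings.

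CCND2 (chromosome 12, 4273772 to 4305350), a D cyclin with the same role, had 9.72, 11.4 and 5.69 CPM in 3D, against 1.44, 2.67 and 2.83 CPM in 2D. Every 3D library lay above every 2D library, although 3D replicate 3 was well below the other 2. These levels rest on 98, 177 and 81 counts in 3D and 23, 44 and 51 counts in 2D. CCND2 rose 3.84-fold (log2 1.94, SE 0.32, edgeR adjusted p = 0.000999).

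CCND3 (chromosome 6, 41934933 to 42050357) had 13.5, 9.24 and 13.2 CPM in 3D, against 5.13, 5.21 and 6.11 CPM in 2D. The lowest 3D library, replicate 2, was still above all plates. CCND3 rose 2.17-fold (log2 1.12, SE 0.21, edgeR adjusted p = 0.00173). CCND2 and CCND3 were called in all 16 alternative settings, with log2 fold changes of 1.69 to 2.19 and of 0.88 to 1.28.

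Levels of different genes were compared as CPM per kilobase of the longest basic GENCODE transcript. On that scale CCND1 made up 91.2 ± 1.33% of the summed D cyclins in 3D and 96.3 ± 0.461% in 2D (SD, n = 3 each). CCND3 made up 6.92 ± 1.79% in 3D and 3.17 ± 0.285% in 2D, and CCND2 1.87 ± 0.542% in 3D and 0.499 ± 0.179% in 2D. The sum of the 3 was 73.5 ± 12.6 CPM per kilobase in 3D and 72.3 ± 5.68 in 2D, a difference smaller than the spread between libraries. CCND1 thus remained the main D cyclin transcript in all 6 libraries, at 89.7% or more of the sum.

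The partner kinases changed in opposite directions. CDK4 (chromosome 12, 57747727 to 57756013) had 144, 144 and 173 CPM in 3D, against 111, 125 and 108 CPM in 2D. The groups did not overlap, with 3D replicate 3 the highest. CDK4 rose 1.34-fold (log2 0.42, SE 0.12, edgeR adjusted p = 0.0218). Its call was lost without 2D replicate 1 (adjusted p = 0.102), without 2D replicate 3 (0.0976) and without 3D replicate 3 (0.0816).

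CDK6 (chromosome 7, 92604921 to 92836594) had 278, 257 and 249.7 CPM in 3D, against 408, 401 and 469.6 CPM in 2D. The 3D libraries lay close together and all below the plates. CDK6 fell to 262 ± 14.8 CPM in 3D, against 426 ± 37.8 CPM in 2D (log2 −0.70, SE 0.12, edgeR adjusted p = 0.00134).

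Per kilobase the ratio of CDK4 to CDK6 was 2.89, 3.14 and 3.86 in 3D, against 1.52, 1.75 and 1.29 in 2D. The sum of the kinases was 96.5 ± 7.09 CPM per kilobase in 3D and 92.1 ± 3.16 in 2D. Transcript length moved with these results. Tested genes were split into 10 groups of near equal size by transcript length. CDK4, with a transcript of 2076 bases, was in group 3 from the short end, where the median log2 fold change was 0.18. CDK6, with 11612 bases, was in the longest group, where the median was −0.42. Once length and GC content were corrected, the log2 fold change was 0.19 for CDK4 (edgeR adjusted p = 0.167) and −0.19 for CDK6 (adjusted p = 0.222), and neither was called. TSPAN31, on the opposite strand, shares 1078 exon bases with CDK4, and reads of the overlap cannot be told apart because strand handling is not given. TSPAN31 itself had 11.2 CPM in 3D, against 13.2 CPM in 2D (adjusted p = 0.320).

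**Figure D2:**
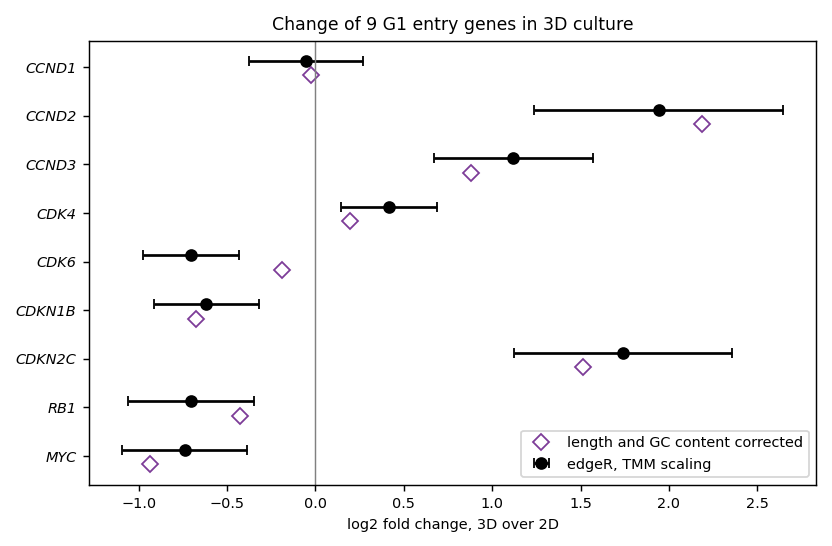
Log2 fold change of each gene, 3D over 2D (horizontal axis), with its 95% interval (black), and the value with transcript length and GC content corrected (open diamonds). The corrected values of CDK4 and CDK6 lie at 0.19 and −0.19, while those of the other called genes stay on the same side of 0 and past the threshold.

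The inhibitors also went opposite ways. CDKN2C (chromosome 1, 50960745 to 50974633), of the INK4 family, which binds CDK4 and CDK6, had 27.9, 19.1 and 18.1 CPM in 3D, against 7.07, 3.82 and 8.44 CPM in 2D. All 3D libraries were above all plates, and 2D replicate 2 was the lowest. CDKN2C rose 3.34-fold (log2 1.74, SE 0.28, edgeR adjusted p = 0.00106), more than 96.7% of tested genes by absolute fold change. Its level per kilobase, set against the summed kinases CDK4 and CDK6, was a ratio of 0.0781 ± 0.0224 in 3D and 0.0242 ± 0.00920 in 2D.

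CDKN1B (chromosome 12, 12715058 to 12722371), the CIP/KIP inhibitor p27, had 53.0, 68.2 and 67.3 CPM in 3D, against 106, 87.1 and 97.0 CPM in 2D. No 3D library reached the lowest plate. CDKN1B fell to 62.8 ± 8.55 CPM in 3D, against 96.6 ± 9.26 CPM in 2D (log2 −0.62, SE 0.14, edgeR adjusted p = 0.00472). Both inhibitors were called in all 16 alternative settings. Their protein levels, which for p27 are set largely by degradation, were not measured.

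RB1 (chromosome 13, 48303751 to 48481986), the target of the cyclin D kinases, had 28.8, 43.2 and 29.5 CPM in 3D, against 59.0, 51.4 and 55.6 CPM in 2D. The groups stood apart, with 3D replicate 2 nearest to the plates. RB1 fell to 33.8 ± 8.14 CPM in 3D, against 55.3 ± 3.79 CPM in 2D (log2 −0.71, SE 0.16, edgeR adjusted p = 0.00636). With length and GC content corrected the log2 fold change was −0.42 (adjusted p = 0.0160). The span of RB1 in the table is shorter than in GENCODE release 29, where the gene runs to 48599436. Which of its exons were counted is not given, and its transcript length, taken from GENCODE, may exceed what was counted.

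A gene on the opposite strand inside the RB1 span had a similar number of counts. LPAR6, a receptor for lysophosphatidic acid, had 303, 647 and 613 counts in 3D, against 961, 828 and 1139 in 2D, next to 290, 669 and 420 counts of RB1 in 3D and 942, 848 and 1002 in 2D. The ratio of LPAR6 to RB1 counts lay between 0.967 and 1.46 in 3D and between 0.976 and 1.14 in 2D. LPAR6 fell too (log2 −0.59, SE 0.16, edgeR adjusted p = 0.0130). The basic GENCODE transcripts of these genes share 0 exon bases. Whether reads of either gene were counted for the other was not tested.

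MYC (chromosome 8) had 145, 159.6 and 229 CPM in 3D, against 295, 300.2 and 296 CPM in 2D. The plates were nearly equal, while 3D replicate 3 lay well above the other 3D libraries and still below every plate. MYC fell with a log2 fold change of −0.74 (SE 0.16, edgeR adjusted p = 0.00466). It was called in all 16 alternative settings, with log2 fold changes between −0.97 and −0.62.

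Per kilobase, the order of the 9 genes by mean level differed between the cultures, in part between genes whose libraries overlapped. In 3D MYC (75.1 CPM per kilobase), CDK4 (74.0) and CCND1 (67.1) came first, and neighbours in this order overlapped between libraries. CDKN1B (23.6) and CDK6 (22.5) followed and overlapped too, then CDKN2C (7.47) and RB1 (7.06), which overlapped, CCND3 (5.01) and CCND2 (1.38). In 2D MYC (126 CPM per kilobase) stood above CCND1 (69.7) and CDK4 (55.4) with no overlap between neighbours. CDK6 (36.7) and CDKN1B (36.3) overlapped, RB1 (11.5) came next, CCND3 (2.29) and CDKN2C (2.22) overlapped, and CCND2 (0.357) was lowest. These levels depend on the transcript taken for each length.

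**Figure D3:**
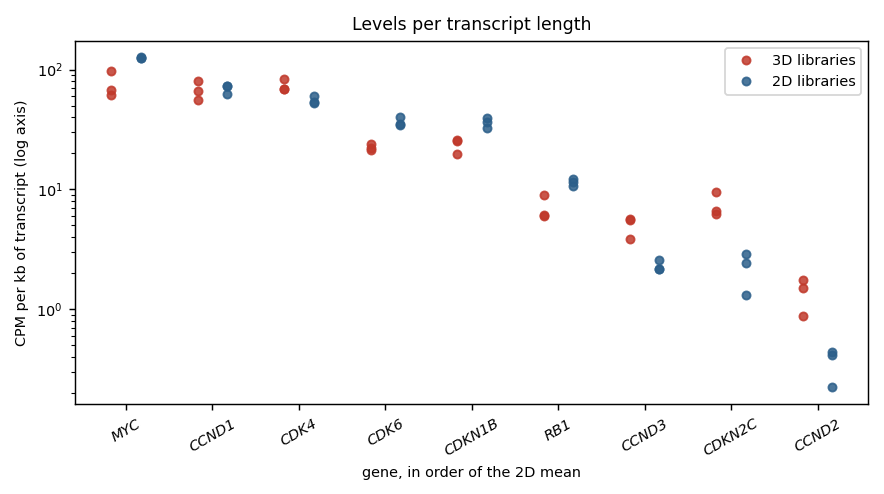
CPM per kilobase of transcript (vertical log axis) of each gene in the 3 libraries of 3D culture (red, left) and of 2D culture (blue, right), with genes in order of the 2D mean. MYC stands alone at the top in 2D and overlaps with CDK4 in 3D, and CDKN2C lies near CCND3 in 2D and near RB1 in 3D.

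A list of 11 further cyclins and kinases of G1 and S phase and their activators held genes that were higher in 3D or not called. Of these 11, 6 rose, among them the phosphatase CDC25A and the kinase chaperone CDC37, and 0 fell. Over all genes tested 19.0% rose and 17.6% fell. The median log2 fold change was 0.59 beside 0.02 over all genes tested. CCNE1, the cyclin that activates CDK2 at the end of G1, rose to 32.5 ± 0.638 CPM in 3D, against 13.5 ± 2.92 CPM in 2D (log2 1.26, SE 0.17, edgeR adjusted p = 0.000278). CDK2 rose to 36.7 ± 1.78 CPM in 3D, against 24.3 ± 2.76 CPM in 2D (log2 0.59, adjusted p = 0.00585). CCNE2, a second E cyclin, averaged 2.52 CPM in 3D, against 1.41 CPM in 2D (adjusted p = 0.0728). It was called higher after correction for length and GC content (0.0316), with the replicate block added to that (0.0397) and without 3D replicate 1 (0.0484). CCNA2, a cyclin of S phase and G2, rose (log2 1.18, adjusted p = 0.0266), and its call was lost without 2D replicate 1 (adjusted p = 0.0700), 3D replicate 1 (0.0904) or 3D replicate 2 (0.0621), with the replicate block (0.129) and with no filter on low counts (0.0570).

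Of 4 other CDK inhibitors analysed, 2 rose and 0 fell, beside 19.0% and 17.6% of all genes tested. The list's median log2 fold change was 0.82. CDKN1A (p21), which p53 is known to induce, rose to 122 ± 14.3 CPM in 3D, against 71.7 ± 7.79 CPM in 2D (log2 0.76, SE 0.13, edgeR adjusted p = 0.00129). Corrected for length and GC content, its log2 fold change was 0.49. CDKN2D (p19), an INK4 inhibitor like CDKN2C, rose to 5.25 ± 1.37 CPM in 3D, against 2.22 ± 0.482 CPM in 2D (log2 1.24, adjusted p = 0.00665). Its adjusted p was 0.0564 with length and GC content corrected, which left 1 gene of the list called. Of the 6 inhibitors analysed, CDKN1B was the 1 called lower.

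Among 12 pocket proteins, E2F factors and DP partners, 5 rose and 2 fell, beside 19.0% and 17.6% of all genes tested. E2F1, an activator of S phase genes, rose to a mean of 81.9 CPM in 3D, against 29.6 CPM in 2D (log2 1.46, SE 0.29, edgeR adjusted p = 0.00517). E2F2, another activator, and E2F7, a repressor that E2F1 is known to induce, rose by log2 1.95 and 1.56. RBL2 (p130), the pocket protein of resting cells, fell to 41.3 ± 7.91 CPM in 3D, against 79.7 ± 4.08 CPM in 2D (log2 −0.95, SE 0.15, adjusted p = 0.000710). RBL1 (p107) did not pass the test (31.4 CPM in 3D, 34.8 CPM in 2D, adjusted p = 0.514). E2F5, which works with p130, fell (log2 −0.53, adjusted p = 0.0147), a call lost without 2D replicate 1 (0.0602) or 2D replicate 2 (0.0508), each of which left 1 gene called lower.

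All 14 E2F target genes of S phase entry rose, beside 19.0% of all genes tested, with a median log2 fold change of 1.46. The count was 13 with the replicate block, 13 with no filter on low counts, and 13 to 14 with 1 library left out. TK1, thymidine kinase, rose to 80.6 ± 17.9 CPM in 3D, against 14.7 ± 6.75 CPM in 2D, and MCM6, a subunit of the replicative helicase, to 41.0 ± 1.97 CPM in 3D, against 11.8 ± 3.26 CPM in 2D. The median level of the list was 136, 114 and 106 CPM in 3D replicates 1 to 3, against 45.3, 29.1 and 55.3 CPM in 2D. The DREAM complex, with MuvB as its core, represses cell cycle genes in resting cells. A list of 7 genes around it held the MuvB genes LIN9, LIN37, LIN52, LIN54 and RBBP4, which were not called, with MYBL2 and the kinase DYRK1A. Of these 7, 1 rose and 1 fell. Over all genes tested 19.0% rose and 17.6% fell. The gene that rose, MYBL2, encodes the factor that joins MuvB in cycling cells (log2 2.26, SE 0.48, edgeR adjusted p = 0.0114). Its call was lost without 2D replicate 1 (adjusted p = 0.0520). The count of genes of this list called higher was 0 without that library, 3 without 2D replicate 3 and 2 without 3D replicate 1. It was 4 after correction for length and GC content. The gene that fell, DYRK1A (40.2 CPM in 3D, 55.9 CPM in 2D, adjusted p = 0.0395), was no longer called (adjusted p 0.0541 to 0.122) when any 1 library other than 3D replicate 3 was left out, and its direction turned with length and GC content corrected (log2 0.072).

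Genes that set the stability of p27, cyclin D and MYC changed both ways. Of 17, 4 rose and 6 fell, beside 19.0% and 17.6% of all genes tested, and the median log2 fold change was 0.02. SKP2 and CKS1B, which together mark p27 for degradation, rose to 68.8 ± 13.4 CPM in 3D, against 33.7 ± 7.37 CPM in 2D, and to 65.3 ± 3.24 CPM in 3D, against 29.6 ± 7.18 CPM in 2D (edgeR adjusted p = 0.00144 and 0.000556). AMBRA1, which directs the degradation of D cyclins, fell to 36.7 ± 4.76 CPM in 3D, against 56.5 ± 1.40 CPM in 2D (log2 −0.62, SE 0.13, adjusted p = 0.00363). HUWE1, a ubiquitin ligase of MYC among other proteins, fell by 0.61 on the log2 scale (adjusted p = 0.00568). Corrected for length and GC content its log2 fold change was −0.30, and with the replicate block added it was no longer called (adjusted p = 0.0642). Leaving out 2D replicate 1 or 2D replicate 3 left 3 genes called lower in each case. After correction for length and GC content 4 were called lower, and 2 with the replicate block added.

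Partners and antagonists of MYC were lower or not called, apart from MXD3. Of 11 tested, 1 rose and 4 fell, beside 19.0% and 17.6% of all genes tested, and the median log2 fold change was −0.32. MAX, the DNA-binding partner of MYC, fell to 27.7 ± 3.61 CPM in 3D, against 46.4 ± 4.49 CPM in 2D (log2 −0.74, SE 0.14, edgeR adjusted p = 0.00230). MXD1, which competes with MYC for MAX, fell to 21.5 ± 7.03 CPM in 3D, against 43.2 ± 4.96 CPM in 2D (adjusted p = 0.00386), as did MGA, another repressor that binds MAX (log2 −0.90, adjusted p = 0.000267). The log2 fold change of MGA was −0.40 after correction for length and GC content. MXD3, of the same family as MXD1, rose to 18.6 ± 2.36 CPM in 3D, against 10.8 ± 1.62 CPM in 2D (log2 0.78, adjusted p = 0.00500).

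Nucleolar and growth genes that MYC is known to induce were called about as often as genes in general. Of 24, 6 rose, 2 fell and 16 were not called, beside 36.6% called over all genes tested, and the median log2 fold change was 0.22 (corrected for length and GC content, 0.03). FBL, the methyltransferase of ribosomal RNA, rose to 171 ± 21.5 CPM in 3D, against 100.4 ± 7.74 CPM in 2D (log2 0.77, SE 0.13, edgeR adjusted p = 0.00104). Corrected for length and GC content its log2 fold change was 0.32, and with the replicate block added it was no longer called (adjusted p = 0.0681). RRS1, a ribosome assembly factor, fell to 46.4 ± 7.07 CPM in 3D, against 67.6 ± 6.00 CPM in 2D (log2 −0.54, adjusted p = 0.0112). Its log2 fold change was −0.86 after that correction, and its call was lost when 2D replicate 2 and 3D replicate 1 were both left out (adjusted p = 0.0637). TERT, the catalytic subunit of telomerase, was called higher (log2 1.01, adjusted p = 0.0242). The count called lower was 1 without 2D replicate 2, 2D replicate 3 or 3D replicate 3. The TERT call was lost without 2D replicate 1 (adjusted p = 0.0804), 2D replicate 2 (0.0866) or 3D replicate 1 (0.0773), and without 2D replicate 2 and 3D replicate 1 together (0.214).

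Of 18 tested genes of growth factor input to cyclin D, 0 rose and 8 fell, beside 19.0% and 17.6% of all genes tested. The median log2 fold change was −0.66. With 1 library left out, 6 to 9 genes were called lower. FOS, called lower at an edgeR adjusted p of 0.0499, lost its call in several alternatives, among them the replicate block (0.0650). EGR1, an immediate early gene, fell to 169.6 ± 117 CPM in 3D, against 743 ± 188 CPM in 2D (log2 −2.13, SE 0.50, edgeR adjusted p = 0.0164). Its call was lost without 2D replicate 2 (adjusted p = 0.0637) or 2D replicate 3 (0.0703). EGFR, the receptor of epidermal growth factor, fell to 50.8 ± 4.23 CPM in 3D, against 75.1 ± 8.63 CPM in 2D (log2 −0.57, adjusted p = 0.00608). After correction for length and GC content EGFR was no longer called (adjusted p = 0.0774), and 1 gene of the list was called higher.

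**Figure D4:**
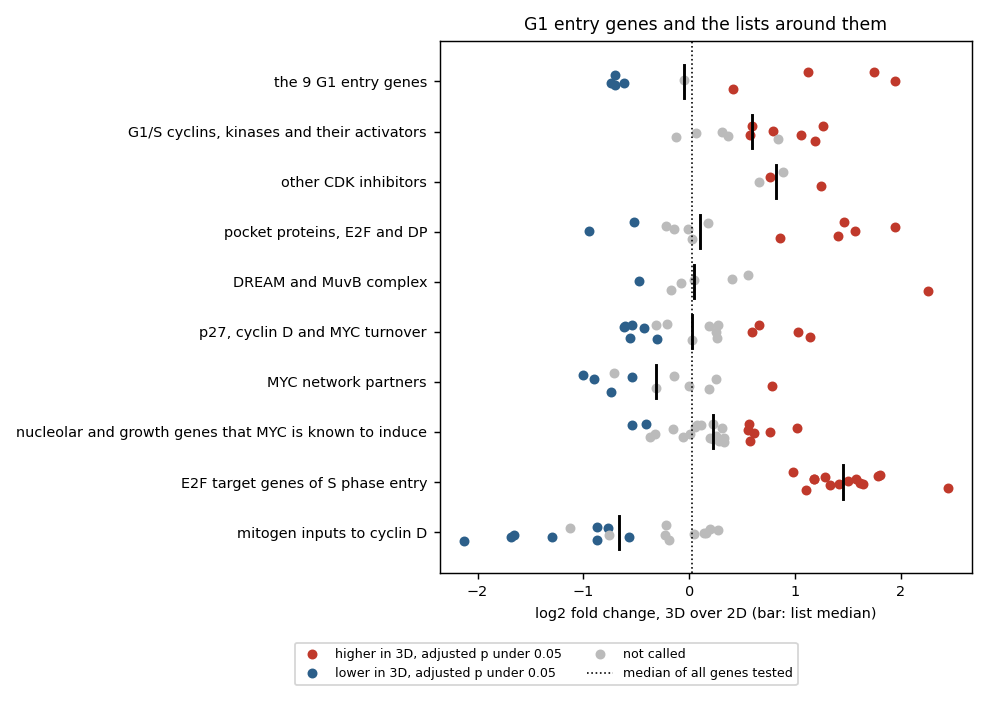
Log2 fold change, 3D over 2D (horizontal axis), of each tested gene (points, coloured by call) in the 9 G1 entry genes and in the lists around them, with the list median (bar) and the median of all genes tested (dotted line). The 14 E2F target genes all lie to the right, at a median of 1.46, and the growth factor input list has its median at −0.66.

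The genes whose profile was nearest to that of CCND1, CDK6 and MYC were taken from the other 126 tested members and list genes. Nearness was the root mean square difference of log2 levels over the 6 libraries, each gene centred on its own mean. Nearest to CCND1 were MLXIP (0.107), AXIN2 (0.113) and CAD (0.130). For CDK6 they were HUWE1 (0.107), EGFR (0.131) and MGA (0.137), and for MYC they were AMBRA1 (0.125), MAX (0.139) and MXD1 (0.168). The levels used were not corrected for length and GC content. With that correction the log2 fold change was −0.19 for CDK6, −0.30 for HUWE1, −0.26 for EGFR and −0.40 for MGA. The part of length and GC content in the nearness was not tested. AXIN2 encodes a feedback inhibitor of Wnt signalling, and averaged 185 ± 34.4 CPM in 3D, against 179 ± 21.5 CPM in 2D (edgeR adjusted p = 0.854). MLXIP, a glucose-responsive factor that pairs with MLX, averaged 68.5 ± 10.3 CPM in 3D, against 68.7 ± 3.48 CPM in 2D (adjusted p = 0.974).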

How the data were processed

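Messenger RNA of 6 HepG2 libraries was analysed, 3 of 3D and 3 of 2D culture, grouped by the sample titles. The values the authors deposited are estimated counts of reads for each gene, with no scaling. STAR 2.4.1d, Partek and the hg38 build are named in the submitters' processing notes. Which annotation release was used, how reads were assigned and whether strand was used is not given in the sources used here. Of the values, 61.7% were exactly whole, with a tolerance of 0, and no gene had a summed count under 10. Of 16207 genes matched to GENCODE by symbol and chromosome, 15421 had the same start and an end 1 base higher, so printed ends are those of the table less 1.

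After rounding, genes with low counts were removed with filterByExpr in edgeR 4.0.16 under R 4.3.3, libraries were scaled by TMM, and a robust quasi-likelihood model with a single term for culture was fitted. Benjamini-Hochberg adjustment ran over 15314 genes, with 0.05 as the threshold. A positive log2 fold change means higher in 3D. Standard errors were derived from the F statistic. Floors of 3 counts cover counting error only. Transcript length and GC content came from the longest basic GENCODE 29 transcript, and 88.5% of tested genes had both. No replicate pair agreed within sampling noise (chi-square per degree of freedom 10.3 to 26.7). The procedure was tested on simulated data in which few genes changed and no trend with transcript length was set. That test cannot vouch for the scaling or the calls here.

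The 9 genes and the 9 lists around them were chosen with earlier results of these data known. Named were all 9 genes, up to 2 called genes per direction and list at 1 CPM or more, 9 genes whatever their result, and the 3 nearest in profile to CCND1, CDK6 and MYC, though not every gene the rule allows. LPAR6, TSPAN31, CDC25A, CDC37 and the MuvB genes were named outside this rule, after their values were seen. CDKN1C is not analysed here. Alternatives were DESeq2 1.42.0, limma-voom (limma 3.58.1), RLE and upper-quartile scaling, no filter, a filter of 1 CPM in 3 samples, a replicate block, a loess correction (span 0.5) for length and GC content with and without the block, and runs without single libraries or without 2D replicate 2 and 3D replicate 1.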

Additional observations from a re-analysis of the deposited data

How the results depend on the processing

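Of the 9 genes, CCND2, CCND3, CDKN1B, CDKN2C, RB1 and MYC kept their direction and their call in all 16 alternatives. CDK4 was called in 11 of 16 and CDK6 in 14 of 16, both in the same direction throughout. With length and GC content corrected and the replicate block together, CDK4 had a log2 fold change of 0.19 (edgeR adjusted p = 0.226) and CDK6 of −0.20 (0.250). The counts of called G1 genes were 3 higher and 3 lower with length and GC content corrected. Leaving out 1 library gave 3 to 4 higher and 4 lower of these genes, and 1938 to 2817 higher and 1828 to 2792 lower over all genes. The lowest counts, 1938 and 1828, were without 2D replicate 1; the cause was not tested. DYRK1A, a kinase in the DREAM and MuvB list, was called lower in the main comparison (log2 −0.47). It was at 0.072 with length and GC content corrected and at 0.029 with the replicate block added. The cause was not tested.

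Whether the replicate numbers pair the samples is not stated in the labels, and correlations over all genes cannot decide it. Deviations from the group means correlated at 0.05, −0.01 and −0.08 between libraries of the same number, and not every library correlated best with its own number. The replicate block moved standard errors both ways, from 0.29 to 0.18 for E2F1 and from 0.12 to 0.16 for CDK6. With the replicate block 4 of the 9 genes were higher and 4 lower, and 2747 genes were higher and 2611 lower in all. CCND2, at 23 to 177 counts per library, is the member whose precision depth limits most.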
